A study of Mus musculus with 24 samples.

Results

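The 39 mouse Hox genes of the Hoxa, Hoxb, Hoxc and Hoxd clusters were followed through 24 RNA-seq libraries of mouse embryonic fibroblasts. Members were every gene whose symbol is Hoxa, Hoxb, Hoxc or Hoxd and a position number, without antisense or opposite-strand transcripts. They made up 39 of the 45706 genes in the count files: 11 in Hoxa (chromosome 6), 10 in Hoxb (chromosome 11), 9 in Hoxc (chromosome 15) and 9 in Hoxd (chromosome 2). A filter on low counts kept 36 of the 39 among 15221 genes tested. Hoxb1, Hoxb13 and Hoxd1 did not pass it.

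Hox genes encode homeodomain transcription factors that give cells their place along the head-to-tail axis and, for the posterior members of Hoxa and Hoxd above all, along the limb. Their order on the chromosome follows their order of use: low numbers lie at the end that opens early and is used toward the head, high numbers at the end used toward the tail and the limb tip. Fibroblasts keep the Hox pattern of the body site they came from, retinoic acid turns on the low-numbered end, Polycomb complexes hold the silent part shut, and the proteins bind DNA together with TALE cofactors such as MEIS proteins.

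The cells came from day 13.5 male C57BL/6 embryos without head and inner organs, so the cultures pool many body sites, and were grown for 7 days. Wild-type cells and cells homozygous for the zinc-finger mutation of the glucocorticoid receptor called GR Zn/Zn each received ethanol vehicle, the synthetic glucocorticoid dexamethasone (Dex, 1 uM, 16 h), bacterial lipopolysaccharide (LPS, 100 ng/ul, 6 h) or both, with 3 libraries in each of 8 groups. Nothing in the labels ties a replicate to an embryo or culture of its own. The p-values therefore reflect spread among libraries alone, and that spread may be technical. Genotype and the embryos and cultures that carried it cannot be told apart.

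Depth was 18.9 to 25.5 M counted reads (M, 1000000) in 21 libraries and 43.9 to 58.0 M in 3 (wild type with Dex and LPS replicate 3, GR Zn/Zn vehicle replicate 1, GR Zn/Zn LPS replicate 2). These 3 carry later library numbers than the rest. In 2 more libraries the deviation from the group mean ran against gene length (Spearman's rho -0.54 in replicate 1 of wild type with both agents, -0.55 in replicate 2 of GR Zn/Zn with both, over 15173 genes). These are the 5 libraries that stood apart. Fibroblast markers were high in every library: the 13 summed to between 21960 and 23466 counts per 1000000 reads (CPM) in wild-type vehicle. Levels below are CPM after TMM scaling, as mean ± SD over n = 3. Adjusted p-values are from edgeR's quasi-likelihood test with Benjamini-Hochberg adjustment over all 15221 genes, and a gene was called below 0.05. In these bulk cultures, fewer cells of a type and less RNA per cell cannot be told apart.

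RefSeq start-site windows of 300 bases (250 before the start, 50 from it on, build GRCm38.p6) were at hand for 22 of the 39 members. Among the 17 others were Hoxa4, Hoxb2, Hoxb3, Hoxb5, Hoxb6, Hoxb7, Hoxb9, Hoxb13, Hoxc5, Hoxc6, Hoxc8, Hoxc9, Hoxc10, Hoxc11, Hoxc12 and Hoxc13. The 4 shown belong to the members with the largest LPS change in Hoxd and Hoxa (Hoxd12, Hoxa10), the member with the largest genotype difference (Hoxa5) and a Hoxb member that fell with Dex (Hoxb8). Each is written 5′ to 3′ on the gene's strand, with every CG dinucleotide in capitals.
Hoxa5 (chr6:52204538-52204837, minus strand): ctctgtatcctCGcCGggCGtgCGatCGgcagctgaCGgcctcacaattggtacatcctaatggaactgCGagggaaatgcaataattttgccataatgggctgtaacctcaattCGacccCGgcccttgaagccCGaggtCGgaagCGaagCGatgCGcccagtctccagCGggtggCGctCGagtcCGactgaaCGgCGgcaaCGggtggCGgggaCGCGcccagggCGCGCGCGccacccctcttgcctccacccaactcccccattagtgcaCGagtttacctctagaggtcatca
Hoxa10 (chr6:52240805-52241104, minus strand): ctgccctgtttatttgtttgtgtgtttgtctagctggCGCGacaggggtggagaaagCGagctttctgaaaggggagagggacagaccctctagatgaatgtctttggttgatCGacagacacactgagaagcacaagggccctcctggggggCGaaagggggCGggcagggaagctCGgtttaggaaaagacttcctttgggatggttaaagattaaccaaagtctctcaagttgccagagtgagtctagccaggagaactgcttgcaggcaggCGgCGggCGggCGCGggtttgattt
Hoxb8 (chr11:96281655-96281954, plus strand): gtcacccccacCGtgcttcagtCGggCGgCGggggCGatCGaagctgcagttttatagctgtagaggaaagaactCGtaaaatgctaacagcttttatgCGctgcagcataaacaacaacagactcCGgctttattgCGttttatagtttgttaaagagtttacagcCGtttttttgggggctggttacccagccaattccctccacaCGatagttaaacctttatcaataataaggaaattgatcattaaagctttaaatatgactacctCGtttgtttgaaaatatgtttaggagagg
Hoxd12 (chr2:74674763-74675062, plus strand): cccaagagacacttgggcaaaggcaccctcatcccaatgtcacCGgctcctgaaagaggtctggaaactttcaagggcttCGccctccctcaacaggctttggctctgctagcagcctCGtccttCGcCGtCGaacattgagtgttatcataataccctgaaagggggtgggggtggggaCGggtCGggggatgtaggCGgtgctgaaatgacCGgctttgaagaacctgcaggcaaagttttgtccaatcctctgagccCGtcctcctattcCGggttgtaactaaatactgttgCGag
The windows held 29 CG dinucleotides at Hoxa5, 12 at Hoxa10, 13 at Hoxb8 and 13 at Hoxd12. The median was 13.5 over the 22 Hox windows (4 to 45, with Hoxa13 highest) and 7 over 32851 RefSeq windows of the same length. On either strand, the half-site hexamer AGAACA of the glucocorticoid receptor element was in 2 of the 22 (Hoxa9 and Hoxa11) and in 19.0% of all windows. The NF-kB consensus was in 0 of the 22 and in 4.51% of all windows. TATAAA was in 3 of the 22 (Hoxb8, Hoxd4 and Hoxd13) and in 13.6% of all windows. The Hoxb8 matches lay at -199 and -110 from the start, both on the opposite strand. These are letter matches in a short window and say nothing of binding.

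In wild-type vehicle the 4 clusters summed to 140 ± 5.85 CPM for Hoxa, 123 ± 2.64 for Hoxb, 89.9 ± 1.82 for Hoxc and 67.8 ± 2.46 for Hoxd. To compare genes, levels were divided by the length of merged exons. Per kilobase, Hoxb9 stood highest (20.6 ± 1.12 CPM per kb), ahead of Hoxd13 (16.1 ± 0.835), Hoxc6 (12.6 ± 0.426) and Hoxa5 (10.5 ± 0.233). Each of these 4 differed from the next in order by more than 1 SD. Hoxa7 (9.12 ± 0.854) and Hoxa11 (8.99 ± 0.144) did not differ beyond their spread, nor did Hoxc8 (8.10 ± 0.101) and Hoxa10 (7.78 ± 0.463). A further group from Hoxb6 (4.78 ± 0.244) down to Hoxb3 (4.04 ± 0.164) held Hoxb6, Hoxb7, Hoxb8, Hoxa6, Hoxc10, Hoxc5 and Hoxb3, with no neighbouring pair in it apart by more than 1 SD. With the longest transcript as the length, 13 of the 39 levels moved by more than 1 SD, and Hoxc6 came to 19.2 CPM per kb against 16.1 for Hoxd13. By that length Hoxc6 had the highest mean in GR Zn/Zn vehicle, at 22.8 CPM per kb against 20.9 for Hoxb9. The SD of Hoxc6 there was already 1.91 per kb of merged exons, so these genes were not shown to differ beyond their spread.

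RNA of members from head-side to tail-side positions was present in the same cultures. Within Hoxd, Hoxd13, the last gene of the cluster and a digit patterning factor, was far above its neighbours Hoxd12 (3.62 ± 0.136 CPM per kb) and Hoxd11 (1.10 ± 0.101), while Hoxd3 (0.136 ± 0.0216) and Hoxd4 (0.150 ± 0.0404) were close to silent. Hoxd3 and Hoxd4 share 62.3% and 52.3% of their exon bases with each other or an overlapping transcript, so their values are uncertain. Hoxc ran the other way at its tail end: Hoxc11 (0.684 ± 0.0629), Hoxc12 (0.329 ± 0.0366) and Hoxc13 (0.387 ± 0.0504) were all lower than Hoxc4 to Hoxc10. Hoxb1 had 1 read in the 12 wild-type libraries together and 0 in the 12 GR Zn/Zn libraries, where a count of 0 allows up to 3 reads. Hoxd1 had 10 and 19 reads, and Hoxb13 had 19 and 99, with a read in 7 of 12 wild-type and 11 of 12 GR Zn/Zn libraries. Such limits cover counting error only.

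**Figure D1:**
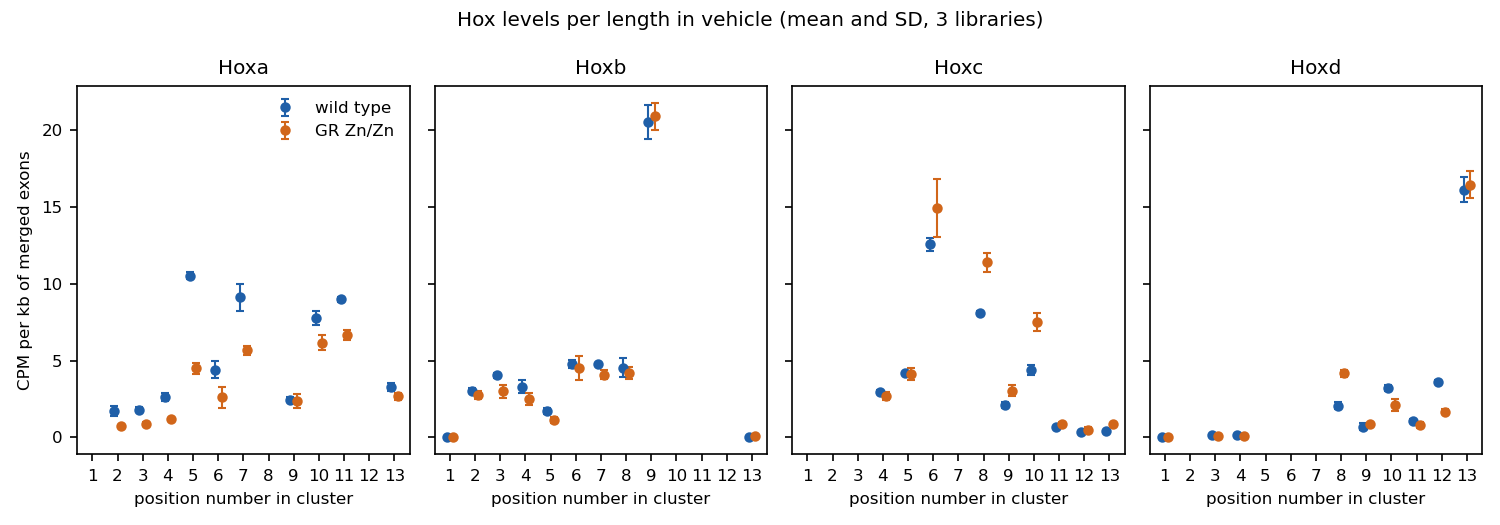
Level per length of the Hox genes shown, in vehicle, in CPM per kb of merged exons (vertical axis) by position number (horizontal axis), as mean and SD of 3 libraries, wild type in blue and GR Zn/Zn in orange. Hoxb9 stands highest in both genotypes, followed in GR Zn/Zn by Hoxd13 (16.5) and Hoxc6 (14.9), which do not differ beyond their spread, while Hoxa5 is 10.5 in wild type and 4.49 in GR Zn/Zn.

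LPS, which acts on innate immune receptors and NF-kB signalling, was compared with vehicle to see how the Hox genes answer an inflammatory stimulus. In wild-type cells 21 of the 36 tested members fell and 0 rose, against 12.4% of all genes tested that fell and 14.0% that rose. The median log2 change of the 36 was -0.49, beside -0.01 over all genes. Only Hoxb2 had an estimate above 0 (0.01, adjusted p = 0.955). None of the 21 changed sign in any of the 16 alternatives tried. By cluster, 10 of 11 Hoxa, 6 of 9 Hoxc and 5 of 8 tested Hoxd members fell, and 0 of 8 tested Hoxb members.

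Hoxa lost the most RNA in absolute terms, from 140 to 78.6 CPM for the whole cluster, or 56.0% of vehicle. Hoxa10, which patterns limb and reproductive tract, had 23.7, 26.2 and 26.4 CPM in the vehicle libraries and 10.4, 10.6 and 10.3 with LPS. The 2 groups lay far apart, and the level fell to 41.0% of vehicle (log2 change -1.28, SE 0.08, adjusted p = 1.46e-11). Hoxa13, a digit and genital tubercle factor, had 8.93, 7.82 and 7.73 CPM in vehicle and 3.34, 3.80 and 3.97 with LPS. It fell to 45.4% of vehicle (log2 change -1.13, SE 0.13, adjusted p = 2.76e-07), again with no overlap. Hoxa9 (53.6% of vehicle) and Hoxa11 (49.9%) fell by similar amounts. The other Hoxa members that fell, Hoxa2 to Hoxa7, were at 57.5 to 67.7% of vehicle.

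In Hoxd the sum dropped to 48.1% of vehicle. Hoxd12, a limb gene beside Hoxd13, had 8.88, 9.08 and 9.55 CPM in vehicle and 3.20, 3.67 and 3.53 with LPS. With a fall to 37.8% of vehicle (log2 change -1.38, SE 0.13, adjusted p = 1.39e-08), it showed the largest change of the 36. Hoxd13 had 38.9, 38.8 and 42.5 CPM in vehicle and 18.4, 17.9 and 18.3 with LPS. No library of one group came near the other, and the fall was to 45.3% of vehicle (log2 change -1.14, SE 0.08, adjusted p = 6.78e-11). Hoxd10 (50.6% of vehicle) and Hoxd11 (46.2%) fell as well, and Hoxd8 fell to 75.4%. Hoxd3, Hoxd4 and Hoxd9 did not pass the test.

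Hoxc changed less, to 75.3% of vehicle in sum. Hoxc8, a gene of the trunk, had 23.1, 23.1 and 22.6 CPM in vehicle and 15.9, 16.0 and 16.4 with LPS. It fell to 70.2% of vehicle (log2 change -0.51, SE 0.05, adjusted p = 1.48e-07) with narrow spread in both groups. Hoxc9 had 4.56, 5.46 and 5.21 CPM in vehicle and 3.79, 3.03 and 4.19 with LPS, a fall to 72.3% (log2 change -0.47, SE 0.14, adjusted p = 0.0109). That call was lost without vehicle replicate 2 (adjusted p = 0.0534) and without LPS replicate 2 (adjusted p = 0.0864). Hoxc4, Hoxc5 and Hoxc6 fell to 73.4 to 80.3% of vehicle. Hoxc10 passed at the very edge (82.2% of vehicle, adjusted p = 0.04997) and was lost in 9 of 16 alternatives, among them each single library left out other than vehicle replicate 3, where adjusted p came to between 0.0746 and 0.187.

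Hoxb differed little with LPS. Its sum was 112 ± 1.32 CPM with LPS against 123 ± 2.64 in vehicle, or 91.5%. Hoxb9, the most abundant member per length, had 54.2, 54.9 and 49.6 CPM in vehicle and 52.9, 48.4 and 50.2 with LPS. The groups overlapped, and the 95% interval of the log2 change was -0.18 to 0.05. The largest estimates were for Hoxb7 (-0.29, adjusted p = 0.0594) and Hoxb8 (-0.27, adjusted p = 0.0791). At an unadjusted p below 0.05 there were 2 Hoxb members, and DESeq2 also called 0. In 4 alternatives 3 Hoxb members fell: with only the compared libraries, with plain library totals, and without the 3 deep or the 5 libraries that stood apart. In 3 more, 1 fell: with the library series as covariate, with unstranded counts and without vehicle replicate 1.

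By position, the 6 tested members numbered 1 to 3 had a median log2 change of -0.46 with 2 called, the 15 numbered 4 to 8 had -0.39 with 9 called, and the 15 numbered 9 to 13 had -0.89 with 10 called. Hoxb, which changed little, gave 2 of the 6, 5 of the first 15 and 1 of the last 15, so these medians mix position with cluster. Within Hoxc the median was -0.41 at positions 4 to 8 and -0.42 at 9 to 13. Within Hoxa the changes ran from -0.55 to -0.78 for positions 2 to 7 and from -0.89 to -1.28 for positions 9 to 13. Spearman's rho of position with log2 change was -0.83 over the 11 Hoxa genes and -0.76 over the 8 Hoxd genes, but -0.07 over the 9 Hoxc and -0.24 over the 8 Hoxb genes. These are descriptions over neighbouring genes of the same libraries and have no p-value.

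**Figure D2:**
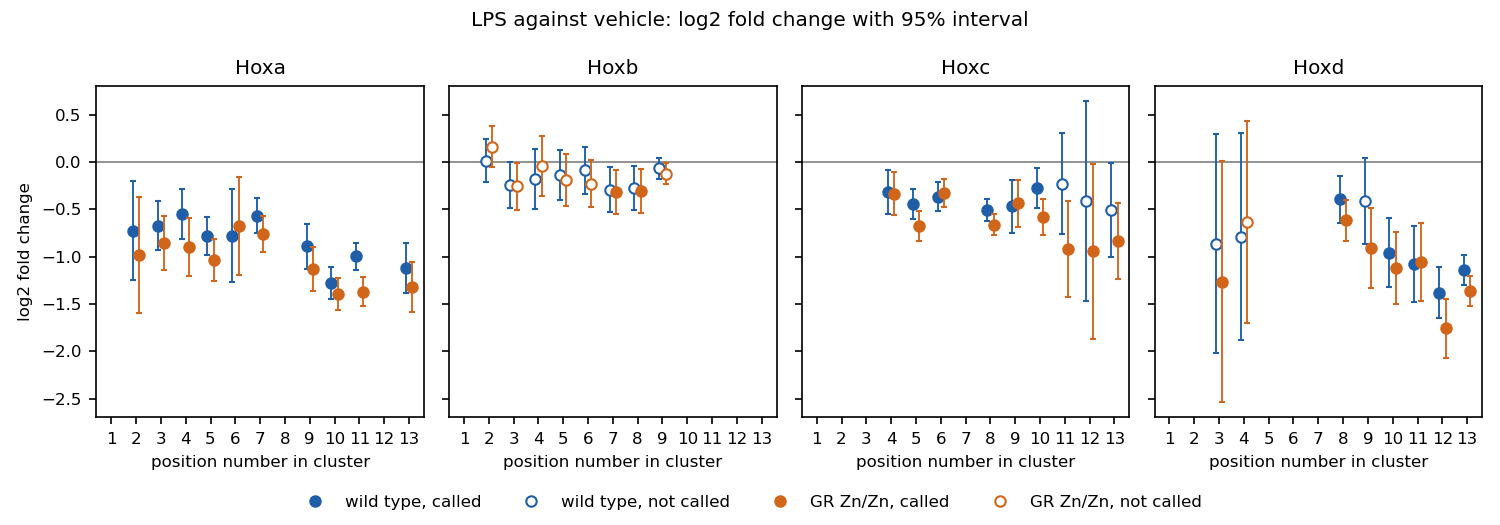
Log2 fold change of LPS against vehicle (vertical axis) by position number (horizontal axis) for the tested Hox genes shown, with 95% intervals. Filled points passed the test, open points did not, wild type in blue and GR Zn/Zn in orange. In wild type the Hoxa and Hoxd points lie lowest at the high position numbers, and the Hoxb points lie near 0. Hoxd3 in GR Zn/Zn (-1.27) lies among the high-numbered Hoxd points.

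In GR Zn/Zn cells LPS lowered 29 of the 36 and raised 0, against 17.7% of all genes that fell and 19.0% that rose. All 21 members that fell in wild type fell here too, which is 100% of the wild-type list and 72.4% of the GR Zn/Zn list. The same share was not counted over all genes, so this overlap is not shown to be particular to Hox genes. These comparisons share no library. Among the 8 others were Hoxb7, Hoxb8, Hoxc11, Hoxc12, Hoxc13, Hoxd3 and Hoxd9. Hoxd12 had 3.76, 4.23 and 4.60 CPM in vehicle and 1.18, 1.25 and 1.04 with LPS, the largest fall of the 36 in this genotype as well (27.5% of vehicle, log2 change -1.76, SE 0.15, adjusted p = 1.45e-09). Hoxa10 fell to 37.7% of vehicle, Hoxa13 to 38.7%, Hoxd13 to 39.3%, Hoxc8 to 63.3% and Hoxc9 to 72.8%. In sum, Hoxa came to 47.1% of its vehicle level, Hoxd to 44.1%, Hoxc to 69.6% and Hoxb to 90.1%. Spearman's rho of position with log2 change was -0.72 for Hoxa, -0.57 for Hoxd, -0.70 for Hoxc and -0.45 for Hoxb.

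The difference between genotypes in the LPS response was tested for each gene. It was called for 0 of the 36 members by edgeR and 0 by DESeq2, against 0.539% of all genes, with 3 members at an unadjusted p below 0.05. The median log2 difference of the 36 was -0.19, beside 0.00 over all genes, and 29 estimates were below 0, a description without a p-value. Hoxa11 had the lowest p (log2 difference -0.37, 95% interval -0.58 to -0.17, adjusted p = 0.104). The longer list of called members in GR Zn/Zn is not shown to be a difference between the genotypes.

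Genes around the clusters gave a mixed picture. Of 22 tested genes from a chosen list of neighbours, the farthest 757 kb from its cluster, 3 fell and 2 rose with LPS in wild type. Over all genes, 12.4% fell and 14.0% rose. The median log2 change of the 22 was 0.04. Evx2, a homeobox gene 8.75 kb beyond Hoxd13, fell from 1.15 to 0.316 CPM (log2 change -1.64, adjusted p = 2.99e-05), and from 1.25 to 0.314 CPM in GR Zn/Zn. Jazf1, 508 kb from Hoxa, fell (log2 change -0.63) and Snx10, 565 kb from Hoxa, rose (0.46). Of 9 tested noncoding transcripts of the clusters, 1 fell: Hoxa11os, read from the strand opposite Hoxa11, went from 3.40 to 1.58 CPM (log2 change -1.06, adjusted p = 0.00122). In GR Zn/Zn it fell from 2.50 to 0.817 CPM, and Hottip, at the Hoxa13 end, fell as well (log2 change -1.40, adjusted p = 0.019).

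Genes that work with or act on Hox genes were counted from lists chosen with earlier results of these data known. The counts are therefore descriptions. Over all genes, 12.4% fell and 14.0% rose with LPS in wild type, and 17.7% and 19.0% in GR Zn/Zn. Of 9 TALE cofactors, which bind DNA beside Hox proteins, 4 fell with LPS in wild type and 0 rose, led by Meis1 (log2 change -0.97) and Meis2 (-0.68). The same counts, 4 and 0, held in GR Zn/Zn. Of 26 tested limb and positional factors, 16 fell and 3 rose in wild type, with Tbx5 at -1.31, En1 at 1.20 and Lmx1b at -1.15. Of 10 tested upstream signals, 5 fell and 2 rose, with the hedgehog receptor Ptch1 at 1.51, the retinoic acid receptor Rarb at -0.87 and Nr6a1 at 0.58. Of 22 Polycomb genes, 5 fell and 1 rose (Cbx7 at 1.16, Jarid2 at -0.44, Cbx2 at -0.36). Of 12 Trithorax and histone demethylase genes, 1 rose, Wdr5 at 0.22. In GR Zn/Zn the counts of these last 2 lists differed: 4 Polycomb genes fell and 5 rose, and 2 Trithorax and histone demethylase genes fell and 3 rose. There 17 limb and positional factors fell and 3 rose, and 5 upstream signals fell and 2 rose. In wild type, summed endothelial markers were 23.6 to 24.5 CPM with LPS against 29.8 to 32.0 in vehicle (2 of 5 tested fell, 1 rose, and 2 of 7 averaged under 0.2 CPM over all libraries). Summed leukocyte markers were 76.4 to 77.9 against 84.3 to 86.9 (3 of 9 fell, 2 rose). Summed liver markers were 2.07 to 31.6 CPM with LPS against 72.7 to 151 in wild-type vehicle, without overlap. Of the 9 tested liver markers edgeR called 0, DESeq2 called 1 and 6 had an unadjusted p below 0.05 in edgeR, with a median log2 change of -2.11. With LPS in GR Zn/Zn the sums of leukocyte (157 to 167 against 190 to 200 CPM, 4 of 9 fell and 3 rose), endothelial (9.65 to 10.3 against 13.2 to 15.7, 2 of 5 tested fell) and epithelial markers (3.41 to 3.84 against 4.13 to 4.33, 1 of 3 tested fell) also lay below vehicle. Liver markers overlapped there (20.5 to 121 against 24.3 to 180 CPM). The part of these cells in the Hox values was not tested.

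Dex was compared with vehicle to see which Hox genes respond to a glucocorticoid, and how this differs when the receptor carries the mutation. In wild type, 6 of 36 members fell and 1 rose, against 5.24% of all genes that fell and 7.92% that rose. The falls were in Hoxb and Hoxc. Hoxb9 had 54.2, 54.9 and 49.6 CPM in vehicle and 40.8, 39.8 and 41.6 with Dex, all below the lowest vehicle library. It fell to 77.0% of vehicle (log2 change -0.38, SE 0.05, adjusted p = 2.40e-05), held in 16 of 16 alternatives. Hoxb8 had 10.2, 12.8 and 13.03 CPM in vehicle and 7.28, 9.17 and 9.33 with Dex. Its fall to 71.7% (log2 change -0.48, SE 0.11, adjusted p = 0.00475) also held in 16 of 16. Hoxb3 went from 16.7, 16.9 and 18.0 to 12.5, 12.4 and 11.8 CPM (log2 change -0.49, SE 0.12, adjusted p = 0.00662). Hoxb2 went from 10.8, 10.0 and 11.0 to 8.44, 7.76 and 7.12 CPM (log2 change -0.44, SE 0.11, adjusted p = 0.00751). Both were lost in counts that ignore strand (adjusted p = 0.350 and 0.570), which also take in reads of the opposite strand. Why these calls were lost was not tested.

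Hoxc5 went from 12.9, 13.1 and 12.9 to 11.0, 10.5 and 11.0 CPM (log2 change -0.26, SE 0.07, adjusted p = 0.0216). Hoxc6, the most abundant Hoxc member per length, went from 30.7, 31.0 and 29.1 to 25.2, 25.3 and 25.9 CPM (log2 change -0.25, SE 0.07, adjusted p = 0.0235). Neither pair of groups overlapped, yet both calls were lost when single libraries were left out. For Hoxc5, adjusted p was 0.0513 to 0.0978 without vehicle replicate 1, 2 or 3 or Dex replicate 2, and 0.0751 without the filter on low counts. For Hoxc6, it was 0.0664 to 0.0918 without vehicle replicate 1 or 2 or Dex replicate 1 or 2. The median change of the 8 tested Hoxb genes was -0.38, with 8 of 8 estimates below 0, and 0 of 8 tested Hoxd genes passed (0 at an unadjusted p below 0.05, 0 by DESeq2). The median over all 36 was -0.21, beside 0.00 over all genes. The Hoxb sum was 94.8 ± 2.30 CPM, or 77.3% of vehicle, and the Hoxa sum 93.7%.

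In the presence of LPS, Dex and LPS against LPS alone lowered 8 of the 36 and raised 2 in wild type, against 10.6% and 10.5% of all genes. All 7 members called for Dex alone were called here in the same direction (100% of that list, 70.0% of this one), and the comparisons share no library. Here too the share over all genes was not counted. Hoxb9 had 52.9, 48.4 and 50.2 CPM with LPS and 42.1, 39.9 and 40.4 with both, a fall to 80.7% (log2 change -0.31, SE 0.05, adjusted p = 0.000178). Hoxb8 had 9.69, 10.0 and 10.0 CPM with LPS and 7.83, 7.57 and 6.43 with both (log2 change -0.46, SE 0.12, adjusted p = 0.00566). Both calls held in 16 of 16 alternatives.

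Hoxb3 had 14.1, 15.7 and 13.6 CPM with LPS and 9.61, 12.5 and 8.43 with both (log2 change -0.53, SE 0.12, adjusted p = 0.00260). Its call was lost without the 5 libraries that stood apart (log2 change -0.23, adjusted p = 0.116), with only the compared libraries in the fit (-0.50, adjusted p = 0.0734) and in counts that ignore strand (adjusted p = 0.0818). Hoxb2 had 10.6, 12.1 and 9.30 CPM with LPS and 8.85, 7.79 and 7.42 with both (log2 change -0.42, SE 0.11, adjusted p = 0.00622), lost without LPS replicate 2 (adjusted p = 0.0570), with only the compared libraries in the fit (0.0883) and in counts that ignore strand (0.291). Hoxc5 had 9.14, 9.09 and 10.3 CPM with LPS and 8.05, 8.11 and 7.21 with both (log2 change -0.29, SE 0.08, adjusted p = 0.00800), lost without the Dex and LPS replicate 3 (adjusted p = 0.0581), without the 3 deep libraries (0.0563), without the 5 that stood apart (0.172) and with only the compared libraries in the fit (0.153).

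Hoxc13, the end gene of Hoxc and a hair and nail factor, had 0.594, 0.555 and 0.815 CPM with LPS and 1.25, 1.16 and 0.886 with both (log2 change 0.66, SE 0.23, adjusted p = 0.0445). Hoxc10, expressed toward the hindlimb, had 6.99, 7.13 and 6.58 CPM with LPS and 6.67, 5.51 and 4.96 with both (log2 change -0.29, SE 0.10, adjusted p = 0.0481), and here the groups overlapped. Hoxc13 kept its call in 8 of 16 alternatives and Hoxc10 in 4 of 16. Without LPS replicate 1 or 2 or Dex and LPS replicate 1 or 2, adjusted p for Hoxc13 was 0.0929 to 0.207. Without LPS replicate 1 or 2 or Dex and LPS replicate 2 or 3, adjusted p for Hoxc10 was 0.0966 to 0.234. Hoxc6 and Hoxc8 fell to 82.5% and 87.9% of the LPS level. With only the compared libraries in the fit, 3 of the 36 were called, and without the 5 libraries that stood apart 5.

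In GR Zn/Zn cells 0 of 36 members were called for Dex by edgeR (0 by DESeq2, 1 at an unadjusted p below 0.05), where 0% of all genes were called. The median log2 change of the 36 was 0.11, beside -0.01 over all genes, and 28 estimates were above 0, a description without a p-value. With LPS present 0 of 36 were called for Dex (0 by DESeq2, 2 at an unadjusted p below 0.05), where 0.00657% of all genes were. Hoxb9 had 56.3, 51.8 and 53.5 CPM in vehicle and 53.6, 56.4 and 55.4 with Dex (log2 change 0.03, 95% interval -0.08 to 0.14).

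The difference of the Dex response between genotypes (GR Zn/Zn minus wild type) was called for 6 of 36 members upward and 1 downward, against 2.60% and 4.40% of all genes. Hoxb9 differed by 0.41 (SE 0.08, adjusted p = 0.00101), called in 22 of 22 alternatives. Hoxb3 differed by 0.69 (SE 0.17, adjusted p = 0.0111) and Hoxb8 by 0.61 (SE 0.16, adjusted p = 0.0162). Hoxb5, which did not pass for Dex in either genotype, had 4.08, 5.20 and 4.96 CPM in wild-type vehicle and 3.58, 3.43 and 4.20 with Dex. In GR Zn/Zn it had 2.61, 3.52 and 3.38 in vehicle and 3.85, 3.75 and 3.99 with Dex, so that the 2 estimates had opposite signs (difference 0.65, SE 0.18, adjusted p = 0.0256). Hoxc6 differed by 0.37 (SE 0.10, adjusted p = 0.0257) and Hoxc5 by 0.34 (SE 0.10, adjusted p = 0.0491).

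In GR Zn/Zn, Hoxb3 had 10.7, 14.1 and 13.4 CPM in vehicle and 14.3, 14.0 and 15.2 with Dex. Hoxb8 there had 10.0, 11.9 and 11.2 CPM, then 12.8, 11.85 and 11.5. Hoxc6 had 31.3, 36.2 and 40.5 CPM, then 41.05, 37.4 and 38.3. In each of these 3 genes the vehicle and Dex libraries of GR Zn/Zn overlapped, whereas the wild-type groups did not. The genes were picked by tests on these same libraries, so this describes the calls and adds no evidence for them.

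These calls rested on single libraries to different degrees. Hoxb3 lost its call only in counts that ignore strand (adjusted p = 0.216). Hoxb8 kept it in 18 of 22 alternatives and lost it without wild-type vehicle replicate 2 or 3, wild-type Dex replicate 1 or GR Zn/Zn vehicle replicate 1 (adjusted p = 0.0503 to 0.0575). Hoxc6 kept it in 15 and lost it without replicate 1 or 2 of wild-type vehicle or of wild-type Dex, or replicate 1 of GR Zn/Zn vehicle or Dex (0.0528 to 0.0724). Hoxb5 kept it in 12 and lost it without wild-type vehicle replicate 2 or 3, wild-type Dex replicate 1 or 2, GR Zn/Zn vehicle replicate 1 or Dex replicate 3 (0.0595 to 0.0968). The further losses of Hoxc6 and Hoxb5 came without the 3 deep libraries (0.0667 and 0.0896) and, for Hoxb5, also without the 5 that stood apart (0.0577), without the filter (0.0591) and in counts that ignore strand (0.119). Hoxc5 kept it in 4, and any single library other than GR Zn/Zn vehicle replicate 2 ended it (0.0513 to 0.139). Of the 36 members, 2 were called without GR Zn/Zn vehicle replicate 1, 3 without wild-type vehicle replicate 2 or Dex replicate 1, and 4 without wild-type vehicle replicate 3 or Dex replicate 2.

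With LPS present, the difference in the Dex response was called for 3 upward (Hoxb3 0.56, Hoxb9 0.41, Hoxc5 0.41) and 2 downward (Hoxa10 at -0.41 among them), against 5.36% and 5.03% of all genes. Hoxa10 had 10.4, 10.6 and 10.3 CPM with LPS and 12.01, 12.2 and 12.3 with Dex and LPS in wild type. In GR Zn/Zn it had 6.93, 7.69 and 8.24, then 6.51, 6.29 and 7.24. Hoxb9 in GR Zn/Zn had 50.4, 46.9 and 51.4 CPM with LPS and 54.7, 53.8 and 50.7 with both, and kept this call in 22 of 22 alternatives. Hoxc5 had 8.07, 8.18 and 7.57 CPM, then 8.66, 8.60 and 8.67, and kept it in 16, lost without replicate 3 of wild type with both (adjusted p = 0.0634) and in 5 settings that changed the filter, the covariate or the set of libraries (0.0556 to 0.109). Hoxb3 had 10.1, 9.96 and 11.8 CPM, then 11.3, 9.49 and 11.4.

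Hoxb3 kept this second call in 10 of 22 alternatives, and Hoxa10 in 8. Hoxb3 lost it without wild-type LPS replicate 2, replicate 1 or 3 of wild type with both, GR Zn/Zn LPS replicate 1 or 2, or replicate 1 or 3 of GR Zn/Zn with both (adjusted p = 0.0617 to 0.108). Hoxa10 lost it without any wild-type LPS library, replicate 2 or 3 of wild type with both, GR Zn/Zn LPS replicate 2 or 3, or replicate 1 or 2 of GR Zn/Zn with both (0.0522 to 0.0987). Hoxb3 and Hoxa10 also lost it with only the compared libraries in the fit (0.133 and 0.0733), without the 3 deep libraries (0.128 and 0.101) and without the 5 that stood apart (0.150 and 0.201). Hoxb3 lost it too in counts that ignore strand (0.564) and with the series covariate (0.159), and Hoxa10 without the filter (0.0676) and by DESeq2 (0.0721). Of the 36, 1 was called without replicate 3 of wild type with both. The count was 2 without LPS replicate 2 of either genotype or replicate 1 of GR Zn/Zn with both, and 3 without wild-type LPS replicate 1 or 3, replicate 2 of wild type with both, GR Zn/Zn LPS replicate 1 or replicate 3 of GR Zn/Zn with both.

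**Figure D3:**
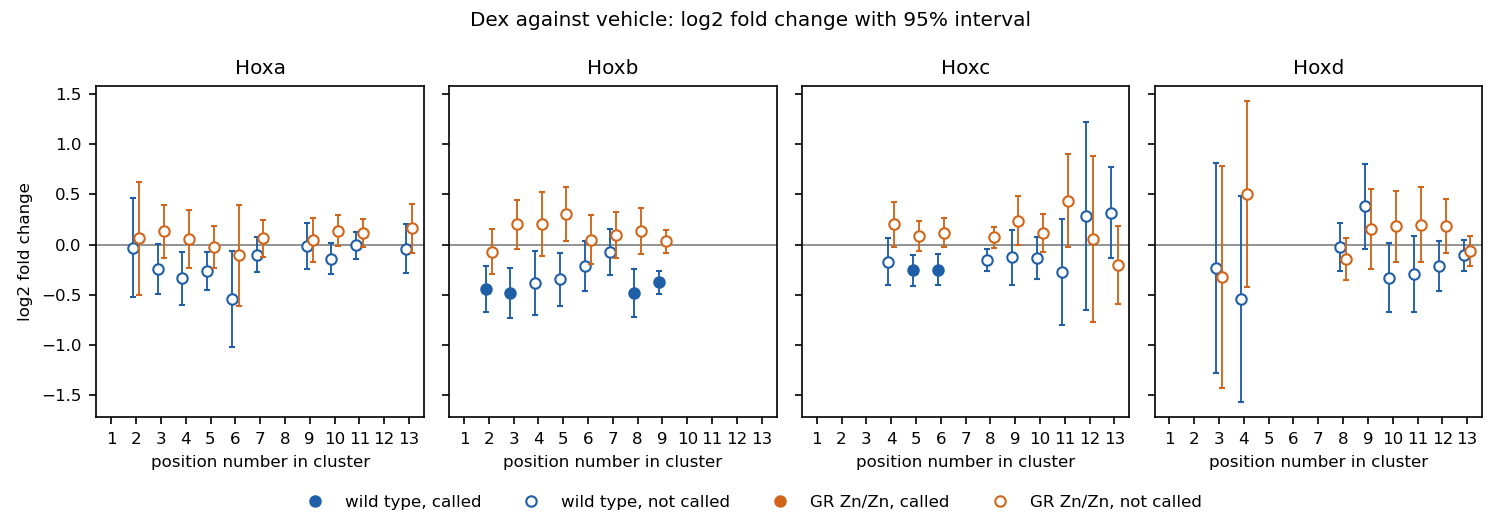
Log2 fold change of Dex against vehicle (vertical axis) by position number (horizontal axis) for the tested Hox genes shown, with 95% intervals. Filled points passed the test, wild type in blue and GR Zn/Zn in orange. In wild type the 8 Hoxb points lie below 0.

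The authors' deposited table gave values for 33 of the members in 4 Dex comparisons. For Dex in wild type, the authors' deposited table had 5 members with an adjusted p below 0.05, among them Hoxb8 at a log2 change of -0.49, Hoxb9 at -0.38, Hoxc5 at -0.26 and Hoxc6 at -0.26. For Hoxb3 the authors' deposited table had -0.37 with an adjusted p of 0.366, and for Hoxb2 -0.31 with 0.623, although edgeR called both on stranded counts. In counts that ignore strand, edgeR gave -0.35 (adjusted p = 0.350) for Hoxb3 and -0.29 (adjusted p = 0.570) for Hoxb2. Which counts lay behind the authors' values was not tested. For Dex with LPS in wild type, the authors' deposited table had 7 members below 0.05, 5 of them lower, and Hoxa11 at 0.27 was one that edgeR did not call (0.18, adjusted p = 0.0748). Members called by edgeR there but above 0.05 in the authors' deposited table were Hoxb2 (0.333), Hoxb3 (0.0788), Hoxc10 (0.0616) and Hoxc13 (0.0807). For Dex in GR Zn/Zn, with and without LPS, the authors' deposited table had 0.

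Of the upstream signals, 2 fell and 1 rose with Dex in wild type: Cyp26b1, which breaks down retinoic acid, rose from 21.4 to 41.3 CPM (log2 change 0.94, adjusted p = 3.63e-09), Aldh1a2, which makes it, fell from 23.6 to 18.1 CPM (-0.37, adjusted p = 0.0097), and Gdf11, a signal for trunk-to-tail identity, fell (-0.26). Of 26 tested limb and positional factors, 3 rose and 2 fell, with Hand2 at 0.89, Irx3 at -0.74 and Gli2 at 0.35. Of the TALE cofactors 1 fell and 1 rose (Pknox2, 0.33). Of 22 neighbours of the clusters, 2 rose and 1 fell. Over all genes, 5.24% fell and 7.92% rose with Dex in wild type. Leukocyte markers summed to 63.2 to 72.4 CPM with Dex against 84.3 to 86.9 in vehicle (4 of 9 fell), and epithelial markers to 8.28 to 10.8 against 14.1 to 16.5 (2 of 3 tested fell, and 4 of 7 averaged under 0.2 CPM). Liver markers summed to 23.7 to 27.3 CPM with Dex against 72.7 to 151, again without overlap. Of the 9 tested, 0 were called by edgeR and 0 by DESeq2, 4 had an unadjusted p below 0.05 in edgeR, and the median log2 change was -1.98. Endothelial markers lay the other way, at 36.2 to 39.6 CPM against 29.8 to 32.0 (1 of 5 tested rose), as did fibroblast markers, at 24341 to 25820 CPM against 21960 to 23466 (2 of 13 rose and 3 fell).

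With Dex and LPS against LPS alone in wild type, epithelial markers summed to 7.53 to 9.43 CPM against 14.8 to 16.3 (2 of 3 tested fell). Muscle markers were at 3.07 to 3.49 CPM against 4.19 to 4.87 (1 of 4 tested fell). Cartilage markers were at 191 to 264 against 281 to 315 (of 6 tested, 0 were called by edgeR and 1 by DESeq2). Endothelial markers were higher in sum, at 25.9 to 28.7 CPM against 23.6 to 24.5, while 1 of 5 tested fell. These 4 sums are given because they did not overlap between the groups. The sums of fibroblast, neural, leukocyte and liver markers did overlap. The part of any of these cells in the Hox values was not tested.

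GR Zn/Zn and wild-type cells differed in vehicle at 18 of the 36 members, 12 lower and 6 higher in GR Zn/Zn, against 10.1% and 8.69% of all genes. The direction differed by cluster: 8 of 11 Hoxa genes were lower and 0 higher, while 5 of 9 Hoxc genes were higher and 0 lower. Hoxb had 2 lower and 0 higher, Hoxd 2 lower and 1 higher. The Hoxa sum was 94.97 ± 2.89 CPM in GR Zn/Zn against 140 ± 5.85, and the Hoxc sum 114 ± 6.87 against 89.9 ± 1.82.

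Hoxa2 to Hoxa5 differed most within Hoxa. Hoxa5, a regulator of the neck and upper trunk, had 19.6, 19.4 and 20.3 CPM in wild type and 7.80, 9.13 and 8.36 in GR Zn/Zn, or 42.7% (log2 difference -1.23, SE 0.10, adjusted p = 2.00e-09). Hoxa2, a gene of the hindbrain and second pharyngeal arch, had 3.61, 2.49 and 3.14 CPM against 1.47, 1.28 and 1.18 (log2 difference -1.17, SE 0.25, adjusted p = 0.00111). Hoxa4 had 4.70, 3.89 and 4.05 CPM against 1.84, 1.90 and 2.03 (log2 difference -1.11, SE 0.13, adjusted p = 6.72e-07). Hoxa3, needed for thymus and parathyroid, had 10.0, 10.4 and 12.1 CPM against 4.54, 5.38 and 5.87 (log2 difference -1.06, SE 0.12, adjusted p = 7.91e-07). In each of these the lowest wild-type library was above the highest GR Zn/Zn library.

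Hoxa6 had 3.70, 3.45 and 4.42 CPM against 1.77, 2.09 and 2.95 (log2 difference -0.77, SE 0.23, adjusted p = 0.0163). Its call was lost without wild-type replicate 3 (adjusted p = 0.0940), GR Zn/Zn replicate 1 (0.119) or GR Zn/Zn replicate 2 (0.0527), and without the 3 deep libraries (0.0608). Hoxa7 was at 62.3% of wild type, Hoxa10 at 79.4% and Hoxa11 at 73.9%. Hoxa9 (96.7%) and Hoxa13 (81.2%) did not pass. The median log2 difference was -0.94 for the 4 Hoxa genes at positions 4 to 8 and -0.31 for the 4 at positions 9 to 13.

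In Hoxd the direction depended on the gene. Hoxd12 had 8.88, 9.08 and 9.55 CPM in wild type and 3.76, 4.23 and 4.60 in GR Zn/Zn (45.8%, log2 difference -1.13, SE 0.12, adjusted p = 3.16e-07). Hoxd8 had 5.03, 6.29 and 5.54 CPM in wild type and 12.1, 11.5 and 10.8 in GR Zn/Zn (203%, log2 difference 1.02, SE 0.11, adjusted p = 1.84e-07). Hoxd13, next to Hoxd12, was at 102% of wild type with overlapping groups (95% interval of the log2 difference -0.12 to 0.18), and Hoxd10 was lower (66.1%). In Hoxc, Hoxc13 had 0.855, 1.09 and 0.910 CPM against 2.05, 2.14 and 2.20 (log2 difference 1.09, SE 0.20, adjusted p = 0.000177). Hoxc10 was at 171% of wild type, Hoxc9 at 146%, Hoxc8 at 141% and Hoxc6 at 119%, while Hoxc4 (91.5%) and Hoxc5 (99.0%) did not pass. Spearman's rho of position with log2 difference was 0.75 over the 9 Hoxc genes, 0.60 over the 8 Hoxb, 0.44 over the 11 Hoxa and -0.31 over the 8 Hoxd genes, a description without a p-value. In Hoxb, Hoxb5 was at 66.8% and Hoxb3 at 74.2% of wild type.

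**Figure D4:**
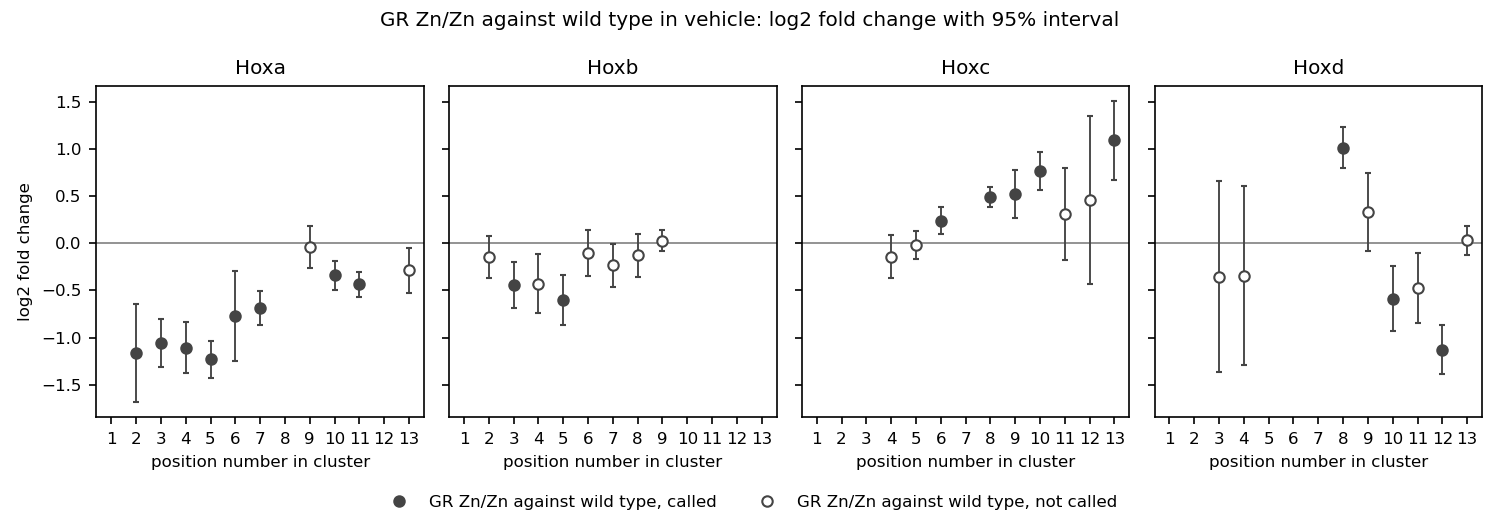
Log2 fold change of GR Zn/Zn against wild type in vehicle (vertical axis) by position number (horizontal axis) for the tested Hox genes shown, with 95% intervals. Filled points passed the test. The Hoxa points for positions 2 to 5 lie between -1.06 and -1.23, and the Hoxc points that passed lie above 0.

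Markers of other cell types also differed between the genotypes. Cartilage markers summed to 69.0 to 93.3 CPM in GR Zn/Zn vehicle and 267 to 291 in wild-type vehicle, of which Col2a1 made up 57.6 and 254 CPM (1 of 6 tested lower, 1 of 7 averaged under 0.2 CPM). Leukocyte markers summed to 190 to 200 against 84.3 to 86.9 CPM (8 of 9 higher), endothelial markers to 13.2 to 15.7 against 29.8 to 32.0 (2 of 5 tested lower) and epithelial markers to 4.13 to 4.33 against 14.1 to 16.5 (2 of 3 tested lower). Of the 13 fibroblast markers, 8 were higher and 0 lower. Liver markers ranged from 24.3 to 180 CPM in GR Zn/Zn and from 72.7 to 151 in wild type, with overlap. Neural markers summed to 1.01 to 1.22 against 0.414 to 0.568 CPM (7 of 8 averaged under 0.2 CPM) and muscle markers to 2.09 to 3.38 against 4.18 to 4.58 (4 of 8 under 0.2 CPM). Their part in the Hox differences was not tested. Of the upstream signals 3 were lower and 2 higher: Aldh1a2 was at 4.85 CPM against 23.6 (log2 difference -2.24, adjusted p = 8.06e-13), Rarb was lower (-0.64) and Fgf10 higher (0.50). Of 26 limb and positional factors 10 were higher and 1 lower, among them En1 (0.93) and Msx1 (0.90). Of the TALE cofactors 2 were lower, among them Meis2 (-0.32), and 1 higher (Pknox1, 0.24). Of 9 noncoding transcripts Hoxaas2 was lower (-0.96, adjusted p = 0.00458) and Mir196a-1 higher (0.73, adjusted p = 0.0427). Of the 22 neighbours of the clusters, 2 were higher and 1 lower. Over all genes, 10.1% were lower and 8.69% higher in GR Zn/Zn vehicle.

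Across all 8 groups, Hoxd12 had its highest mean in wild-type vehicle (9.17 ± 0.345 CPM) and its lowest in GR Zn/Zn with LPS (1.16 ± 0.110), with 1.19 ± 0.280 when Dex was added. Hoxa5 ran from 19.8 ± 0.437 in wild-type vehicle to 4.02 ± 0.566 in GR Zn/Zn with Dex and LPS. Hoxb9 stayed between 49.6 and 55.1 CPM in the 4 GR Zn/Zn groups and had 2 levels in wild type, 52.9 and 50.5 without Dex and 40.7 and 40.8 with it. Hoxd8 was higher in each GR Zn/Zn group (7.40 to 11.4 CPM) than in any wild-type group (4.24 to 5.62).

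**Figure D5:**
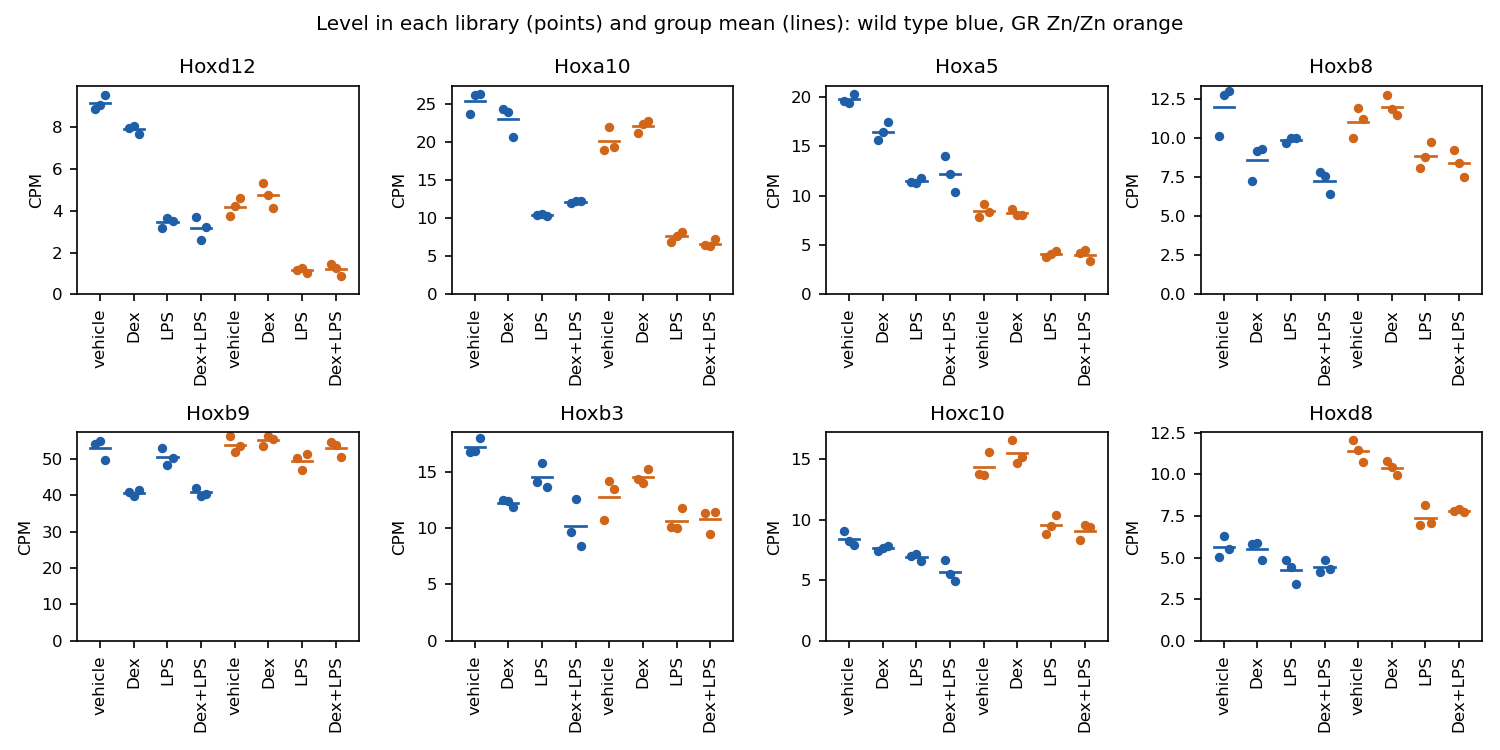
Level of 8 Hox genes in each library in CPM (vertical axis, from 0) by group (horizontal axis), wild type in blue and GR Zn/Zn in orange. Points are libraries and lines are group means of 3. Hoxd12 and Hoxa10 drop with LPS in both genotypes, and Hoxb9 is lower with Dex in wild type.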

How the data were processed

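RNA of 24 libraries was made with a stranded mRNA kit from 500 ng, per the labels' protocols. The deposited read counts per gene were made by the authors with STAR, and DESeq2, DESeq, FastQC, STAR (2.4.2, 2.4.2a) and mm10 stand in the submitters' processing notes. Counts of the strand that the kit reads were used, and 2.70 to 2.91% of stranded reads lay on the other strand. Reads in no feature (3.10 to 4.72%), at several places (3.74 to 5.79%), unmapped (2.92 to 5.58%) or ambiguous (1.18 to 1.41%) stayed out. The authors' deposited log2 fold changes and adjusted p-values are quoted as theirs, and 96 other per-sample columns were left unused.

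edgeR 4.0.16 in R 4.3.3 used TMM scaling, its filter by group, 1 robust quasi-likelihood fit of 24 libraries with 1 coefficient per group, and a prior count of 2. It gave 10 contrasts. A count of 0 allows 3 reads, 0.0518 to 0.159 CPM per library. Gene models were GENCODE vM21 on GRCm38, the assembly of mm10. RefSeq windows on chromosome 18 were left out. The fit was tested on simulated counts. Alternatives were DESeq2 1.42.0, 2 other scalings, no filter, unstranded counts, a replicate block, a library series covariate, fewer libraries and each library left out. The members and gene lists were chosen with earlier results of these data known. Values in every library are given for the 2 members per cluster with the largest LPS change called in wild type and for the members (at most 8) with the largest change called in each Dex or genotype comparison. Other genes are the 3 with the largest called change from each list. Some genes that this rule names are counted but not otherwise reported here, nor plotted.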

Additional observations from a re-analysis of the deposited data

Results flagged for a closer look

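The Dex response differed between the genotypes by a test of the difference itself (GR Zn/Zn minus wild type, log2 scale, edgeR). Without LPS this was called for members including Hoxb3 (0.69), Hoxb5 (0.65), Hoxb8 (0.61), Hoxb9 (0.41), Hoxc5 (0.34) and Hoxc6 (0.37). Of all genes, 2.60% were called upward and 4.40% downward. With LPS present it was called for members including Hoxa10 (-0.41), Hoxb3 (0.56), Hoxb9 (0.41) and Hoxc5 (0.41), against 5.36% and 5.03% of all genes. Without LPS these calls were kept in 4 (Hoxc5) to 22 (Hoxb9) of 22 alternatives, and with LPS in 8 (Hoxa10) to 22 (Hoxb9). Hoxb9 was the one member called in both in each of the 22 alternatives.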

How the results depend on the processing

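Of 824 recomputed log2 changes (47 gene results under their alternatives), 0 changed sign, 687 kept their call and 137 lost it. The number of Hox genes called stayed within 1.5 times the reported one in all but 27 of 178 recomputed counts. Most of the 27 belonged to the genotype differences of the Dex response, with and without LPS. The 178 include comparisons with 0 called in every setting: Dex in GR Zn/Zn, with and without LPS, and the genotype difference of the LPS response. For Dex in wild type (7 called) the number was 14 with only the compared libraries in the fit, 11 with plain library totals and 14 without the 5 libraries that stood apart, and it ranged from 5 to 9 with single libraries left out. For Dex and LPS against LPS in wild type (10) it was 3 with only the compared libraries and 5 without the 5 libraries, with 7 to 10 when single libraries were left out. For the genotype difference of the Dex response (7) it was 3 with unstranded counts and 3 without the 3 deep libraries, and 2 to 7 with single libraries left out. For the same difference under LPS (5) it was 1 with only the compared libraries, 2 with the library series as covariate, 2 without the filter, 3 with unstranded counts, 1 without the 3 deep libraries and 2 without the 5, and 1 to 5 with single libraries left out. The cause was not tested. LPS counts ranged from 17 to 25 in wild type and 24 to 32 in GR Zn/Zn, and genotype counts from 16 to 19. Plain library totals moved the median of all genes under LPS in GR Zn/Zn to -0.12, with 32 members called there. With the replicate block, Dex in wild type gave 7, LPS in wild type 20, Dex and LPS against LPS 9 and the genotype difference of the Dex response 6. Replicate numbers did not pair the libraries: over 84 pairs with the same number the median correlation of deviations was -0.00035, and 0 of 28 pairs of groups had every correlation above 0.1. Depth limits the rarest members: the 95% interval of the LPS change of Hoxd3 in wild type was -2.02 to 0.29, and Hoxb1, Hoxb13 and Hoxd1 were not tested.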
